A study of Mus musculus with 12 samples.

Results

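The subcortical maternal complex is a protein assembly that lies beneath the plasma membrane of the oocyte and of the cells of the early embryo. Its 6 genes examined here were Khdc3, Ooep, Nlrp5, Tle6, Padi6 and Zbed3, 6 of the 19938 genes measured. They were taken by symbol, as every probe set annotated to that symbol alone, and each gene had exactly 1 such probe set and 0 probe sets shared with another symbol. The genes were chosen by their known place in the complex at a time when the fall of Khdc3 on these arrays had been seen, so their values are given as a description. No p-value is printed for a member, and calls from the fit over all genes are counted for them only as a description.

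The cells were Esrrb_R, a rescue clone made from the AINV15 line of mouse embryonic stem (ES) cells, which carries the rtTA activator. A short hairpin RNA in these cells silences the endogenous gene of Esrrb, an orphan nuclear receptor of the pluripotency network, and a hairpin-resistant copy is switched on by doxycycline (Dox). The day 0 cultures had 1 µg/ml Dox, and the cultures of days 1, 3 and 5 had been without it for 1, 3 and 5 days, all in serum and Lif on gelatin, with 3 biological replicates a day and 12 arrays in all. The hairpin, the rtTA activator and the inducible copy were shared by every group, including day 0. All arrays came from 1 clone, and with no control line, the removal of Dox, the time in culture and the loss of Esrrb cannot be told apart. The platform was the Affymetrix Mouse Gene 1.0 ST array, whose probes are spread along the exons, and values are log2 signals, so that a difference of 1 is a 2-fold change.

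In the oocyte and early embryo these proteins are supplied by the mother, and loss of several of them stops development soon after fertilization. Nlrp5, also called Mater, is an NLR-family protein named as an antigen of the oocyte. Ooep, also called Floped, and Khdc3, also called Filia, carry KH-type domains, a fold known for binding RNA, and Tle6 is a divergent relative of the Groucho (Tle) co-repressors. Padi6 belongs to the peptidylarginine deiminases and is needed for the lattices that fill the oocyte cytoplasm, and Zbed3 is a zinc finger protein known to bind Axin. Khdc3 is also known as Ecat1, since its transcript was listed among those enriched in ES cells.

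Of the 6 genes, Khdc3, Ooep and Tle6 were called lower than at day 0 on both day 3 and day 5, by the rule given with the counts of calls. The windows below run from 250 bases before to 50 bases after a RefSeq start on GRCm38.p6, 5′ to 3′ on the strand of the gene, and CpG dinucleotides are in capitals. They are shown so that the start sites of these genes can be set side by side. Khdc3 lies at chr9:73102148-73102447 on the plus strand, Ooep at chr9:78378539-78378838 on the minus strand, and the first of the 2 Tle6 windows at chr10:81600851-81601150 on the minus strand.
Khdc3: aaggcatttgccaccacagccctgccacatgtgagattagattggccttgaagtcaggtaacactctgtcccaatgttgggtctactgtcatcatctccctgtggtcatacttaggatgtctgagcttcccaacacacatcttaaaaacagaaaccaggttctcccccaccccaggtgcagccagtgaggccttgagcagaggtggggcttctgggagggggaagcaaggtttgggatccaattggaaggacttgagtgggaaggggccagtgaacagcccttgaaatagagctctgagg
Ooep: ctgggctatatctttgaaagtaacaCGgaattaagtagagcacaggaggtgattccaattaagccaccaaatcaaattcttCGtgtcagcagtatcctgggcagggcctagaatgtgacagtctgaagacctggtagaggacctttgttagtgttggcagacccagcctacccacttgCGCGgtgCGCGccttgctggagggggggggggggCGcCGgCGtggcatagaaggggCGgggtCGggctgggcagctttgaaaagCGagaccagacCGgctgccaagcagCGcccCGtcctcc
Tle6: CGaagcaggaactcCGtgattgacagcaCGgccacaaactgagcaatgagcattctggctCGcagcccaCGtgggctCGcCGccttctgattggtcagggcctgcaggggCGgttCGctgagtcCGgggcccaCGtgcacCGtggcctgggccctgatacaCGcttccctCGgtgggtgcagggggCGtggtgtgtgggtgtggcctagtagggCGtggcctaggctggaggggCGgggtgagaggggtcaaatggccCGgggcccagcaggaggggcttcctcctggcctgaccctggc

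The Khdc3 window held 0 CpG and 52.7% G and C, the Ooep window 15 CpG and 58.3%, and the first Tle6 window 18 CpG and 68.0%. The other Tle6 window, at chr10:81597318-81597617 on the minus strand, held 3 CpG and 60.0%. The median over all 32851 mouse promoter windows of this length was 7 CpG and 52.7%. All 6 genes had a window, 10 windows in all, and 4 motifs were searched on both strands. AAGGTCA, the element of orphan nuclear receptors such as Esrrb, was in 4.72% of all windows, its extended form TNAAGGTCA, which contains it, in 1.28%, and the octamer ATGCAAAT in 1.74%. None of these letters was in any of the 10 windows. The E-box CANNTG was in each of the 10, as in 72.3% of all windows. An E-box began exactly 78 bases before the start in the windows of Khdc3, Ooep and Padi6, and 0.484% of all windows had one at that place. This position was noticed after the windows were read. A match of letters is a description only, since binding was not measured in the data used here.

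Arrays of a day correlated with each other at 0.992 to 0.995 over all probe sets, and no 2 arrays were identical. The signal of Esrrb itself averaged 11.59 ± 0.05 (SD, n = 3) with Dox, then 9.13 ± 0.04, 8.20 ± 0.14 and 8.19 ± 0.08 on days 1, 3 and 5. All 9 arrays without Dox lay below the day 0 arrays. Whether this probe set reads the endogenous gene, which the hairpin silences at day 0 too, the inducible copy or both was not stated. The study reports that endogenous Esrrb mRNA could not be detected because of the hairpin. By its quantitative PCR, the exogenous form was expressed with Dox. Among the 10 ES cell markers, all 10 were above background on every array.

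A gene was counted as above background on an array where its value exceeded the 95th percentile of 1190 olfactory and vomeronasal receptor genes, which belong to sensory neurons. That level lay between 6.14 and 6.35 on the 12 arrays. Khdc3, Ooep, Tle6 and Zbed3 were above it on all 12 arrays, and Nlrp5 and Padi6 on 0 of 12. The level is a guide, because probe sets differ in how well they bind. Tle6 was the least clear of the 4, by 0.46 to 1.02, and with the 99th percentile of the receptors it was above on 7 of 12 arrays, of which 0 were from day 5. With vomeronasal receptors alone, Padi6 was above on 12 arrays and Nlrp5 on 2.

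**Figure D1:**
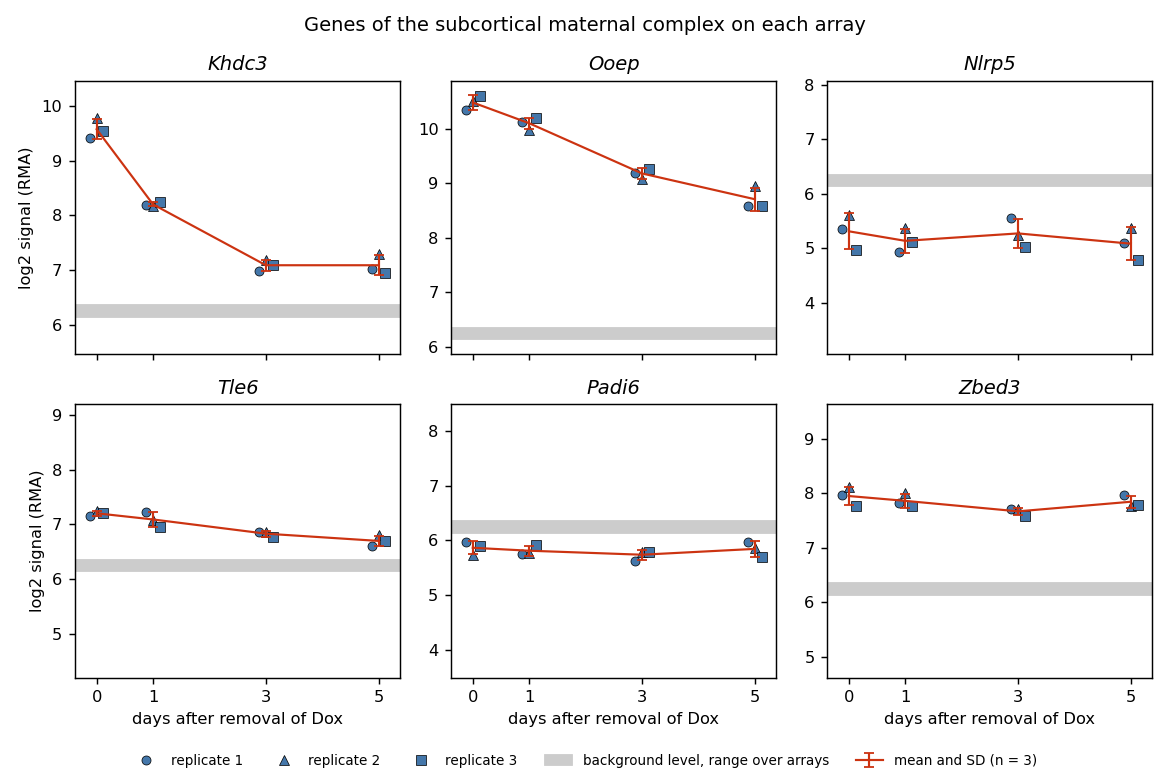
Log2 signal (RMA) of the 6 genes of the complex on each array against days after removal of Dox, with replicates as symbols, the mean and SD of 3 arrays in red and the range of the background level over the arrays as a grey band. The panels span the same number of log2 units but are centred at different levels, and Nlrp5 and Padi6 lie below the band on all 12 arrays.

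Khdc3 was the member with the largest fall, and most of it was present by day 3. Its log2 signals were 9.41, 9.77 and 9.55 at day 0 and 8.18, 8.17 and 8.24 at day 1. They were 6.99, 7.18 and 7.09 at day 3 and 7.01, 7.29 and 6.95 at day 5. The arrays of days 0, 1 and 3 formed separate ranges in falling order, and those of days 3 and 5 overlapped. On the log2 scale the difference from day 0 came to -1.38 on day 1 and to -2.49 on days 3 and 5, each with an SE of 0.10 from limma. This was 2.60-fold lower at day 1 and 5.62-fold lower at days 3 and 5. From day 3 to day 5 the difference was 0.00, with a 95% interval from -0.22 to 0.22. At its lowest over the 12 arrays, Khdc3 was 0.78 above the background level and 0.14 above the 99th percentile of the receptors. Near that level a further fall at days 3 and 5 could be compressed, which was not tested. At day 3, 5 genes of 19938 had a larger fall than Khdc3, which ranked 6, and it ranked 17 at day 1 and 11 at day 5. In bulk RNA, fewer cells that express a gene and less of its RNA per cell cannot be told apart.

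Ooep, the other KH-type gene of the complex, was lower by less and went on falling to day 5. It stood at 10.33, 10.50 and 10.60 at day 0 and at 10.12, 9.98 and 10.19 at day 1. By day 3 it was at 9.19, 9.08 and 9.27, and by day 5 at 8.59, 8.95 and 8.58. The 4 days formed 4 separate ranges in falling order, although days 0 and 1 were apart by only 0.14 and days 3 and 5 by 0.14. The log2 differences from day 0 were -0.38, -1.30 and -1.77 on days 1, 3 and 5 (SE 0.10 each), or 1.30-fold, 2.46-fold and 3.41-fold lower. It was -0.47 from day 3 to day 5 with a 95% interval from -0.70 to -0.25. Its rank among all falls moved from 386 at day 1 to 106 at day 3 and 53 at day 5.

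The pace of the falls differed in the same way. At day 1 Khdc3 had reached 55.3% of its day 5 difference and Esrrb 72.2% of its own, whereas Ooep had reached 21.5% and Tle6 22.4%. At day 3 the difference of Khdc3 was as large as at day 5, and the shares were 99.6% for Esrrb, 73.3% for Ooep and 73.7% for Tle6. These shares are ratios of day means and were not tested. For Khdc3 they rest on signals not far above background at days 3 and 5.

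Tle6, which in the oocyte holds the complex together with Ooep and Nlrp5, was lower by a smaller amount. Its signals were 7.16, 7.24 and 7.20 at day 0, 7.22, 7.09 and 6.96 at day 1, 6.87, 6.85 and 6.76 at day 3, and 6.60, 6.79 and 6.69 at day 5. Days 0 and 1 overlapped, days 3 and 5 overlapped, and every array of the later pair of days was below every array of the earlier pair. Against day 0 the log2 signal differed by -0.11, -0.37 and -0.51 on days 1, 3 and 5 (SE 0.07 each), the last 1.42-fold lower. On the array where it was dimmest against the receptors, its signal was 0.46 above the background level.

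Zbed3, the Axin-binding member, moved least among the 4 genes above background. It stood at 7.97, 8.10 and 7.77 at day 0, 7.82, 7.999 and 7.76 at day 1, 7.71, 7.70 and 7.59 at day 3, and 7.97, 7.77 and 7.79 at day 5. Day 3 was the day whose arrays all lay below the day 0 range, by 0.05 or more. Its mean log2 signal differed from that of day 0 by -0.09, -0.28 and -0.10 on days 1, 3 and 5 (SE 0.09 each). At day 5 the 95% interval ran from -0.31 to 0.10.

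Nlrp5 and Padi6 were at background, and their days overlapped in each comparison. Nlrp5 ran from 4.96 to 5.62 at day 0, 4.94 to 5.37 at day 1, 5.03 to 5.55 at day 3 and 4.78 to 5.38 at day 5. Padi6 ran from 5.73 to 5.97, 5.74 to 5.91, 5.63 to 5.79 and 5.69 to 5.97 on the same days. At day 5 the log2 difference from day 0 was -0.23 for Nlrp5, with a 95% interval from -0.63 to 0.18, and -0.02 for Padi6, with one from -0.21 to 0.17. These intervals describe the signal of probe sets at background, where a fall of the transcript could go unseen.

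**Figure D2:**
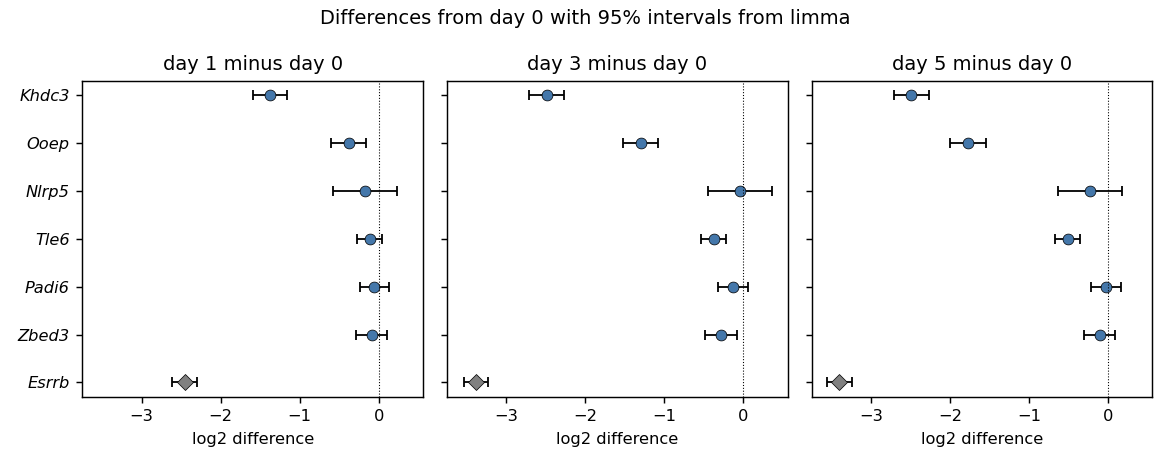
Log2 difference from day 0 at days 1, 3 and 5 for the 6 genes and, as a grey diamond, Esrrb, with points for the difference of day means (3 arrays each) and bars for the 95% interval from limma. Khdc3 reaches -2.49 by day 3 and stays there, Ooep reaches -1.77 at day 5, and the intervals of Nlrp5 and Padi6 include 0 on each day.

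A gene was called where its adjusted p from limma, taken over all 19938 genes, was under 0.05. Against day 0, the members called lower were 2 of 6 at day 1 (Khdc3 and Ooep), 4 at day 3 (with Tle6 and Zbed3) and 3 at day 5 (Khdc3, Ooep and Tle6), and 0 were called higher on any day. Of all genes, 4.48%, 13.1% and 17.6% were called lower on these days and 6.45%, 13.5% and 17.4% higher. Since the group was chosen with these results known, nothing is read from the counts. From day 1 to day 3, 3 members were called lower (Khdc3, Ooep and Tle6), beside 11.6% of all genes, and from day 3 to day 5 only Ooep, beside 12.2%. The median difference of the 6 genes from day 0 was -0.14, -0.33 and -0.37 at days 1, 3 and 5, and that of all genes 0.01, 0.00 and -0.02. Their arrays lay wholly below the day 0 arrays for 2, 4 and 3 members on the 3 days, beside 12.6%, 19.4% and 22.1% of all genes.

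3 of these calls hung on single arrays. The day 1 call of Ooep was lost without replicate 2 or 3 of day 0 or any 1 replicate of day 1, with differences from -0.42 to -0.32, and when every probe set was tested on its own. The day 3 call of Zbed3 was lost without day 0 replicate 1 or 2, without day 1 replicate 1 or without any 1 replicate of day 3, with differences from -0.30 to -0.20, when every probe set was tested, and in a fit of those days alone. The call of Tle6 from day 1 to day 3 was lost without replicate 1 or 2 of day 1 or replicate 3 of day 3, with differences from -0.26 to -0.19. Calls of genes chosen in this way are no support for a change of the group, whether or not they recur in other fits.

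The nearest genes were read on both sides of each member, 2 before and 2 after in the RefSeq gene order of GRCm38.p6. Genes without a probe set annotated to their symbol alone were skipped. Ooep lay between Dppa5a and Ddx43, both above background on all 12 arrays, and these neighbours fell as well. Dppa5a, a KH-type relative of Ooep and Khdc3, fell by 0.25 at day 1, 0.58 at day 3 and 1.07 at day 5 on the log2 scale (SE 0.07, adjusted p = 0.04, 4.1e-05 and 9.9e-08 in limma). Ddx43, a DEAD-box helicase gene of the germline, fell by 0.28, 0.76 and 1.13 (SE 0.08, adjusted p = 0.037, 1.1e-05 and 1.6e-07 in limma). The next genes outward, Omt2b and Cgas, were below background on all 12 arrays. At day 5 Omt2b differed by 0.02 and Cgas by -0.22.

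Beside Khdc3, Rab27a, a small GTPase of vesicle transport, fell by 0.63 at day 3 and 0.97 at day 5 (SE 0.11, adjusted p = 0.0011 and 1.9e-05 in limma), and Rsl24d1, a ribosome biogenesis gene, by 0.18 and 0.38 (SE 0.06, adjusted p = 0.042 and 0.0002 in limma). Pigb and Unc13c were not called on any day. Beside Tle6, Tle5 fell by 1.21 at day 5 and the adjacent Tle2 differed by -0.08 (adjusted p = 3.9e-08 and 0.59 in limma). On the other side of Tle6, BC025920 was not called on any day, and Sirt6, a deacetylase of the sirtuin family, fell by 0.35 at day 3 and 0.23 at day 5 (SE 0.07, adjusted p = 0.0015 and 0.015 in limma).

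Beside Zbed3, calls were made at day 3 for 3 of the 4 neighbours. Wdr41 fell by 0.40 and Aggf1 by 0.30, while Pde8b, a phosphodiesterase gene, rose by 0.30 (adjusted p = 0.00016, 0.0018 and 0.025 in limma), and Pde8b was above background on only 4 of 12 arrays. Wdr41 was also 0.20 lower at day 1 and Aggf1 0.16 lower at day 5 (adjusted p = 0.043 and 0.047 in limma), and Crhbp was not called on any day. Beside Padi6, Padi3 rose by 0.38 at day 3 (SE 0.08, adjusted p = 0.004 in limma), and Arhgef10l, Rcc2 and Padi4 were not called on any day. The neighbours of Nlrp5, which were Nlrp9b, Nlrp4e, Vmn1r170 and Vmn1r171, were below background on all 12 arrays. Over the 24 neighbours, 1, 2 and 1 were called higher and 4, 8 and 8 lower at days 1, 3 and 5. Of all genes, 6.45%, 13.5% and 17.4% were called higher and 4.48%, 13.1% and 17.6% lower on these days.

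The 5 genes whose signal across the 12 arrays was most like that of Khdc3 were Jam2 (Pearson r = 0.993), Aard (0.990), Rpe (0.988), Cdc5l (0.988) and Cdc42ep3 (0.987), of 18712 genes ranked, clone and model symbols left out. Esrrb ranked 26 with r = 0.977, Ooep 275 with 0.922 and Tle6 526 with 0.885. For Ooep the 5 were Hpdl (0.989), Lrrc2 (0.986), Mep1b (0.986), Tigar (0.985) and D1Pas1 (0.984), with Tle6 at rank 210 (0.944) and Khdc3 at rank 378. Tle6 was most like Tex14 (0.974), Fbxo8, Wdr92, Rnf34 and Hpdl, and Ooep ranked 61 for it. Zbed3 was most like Sdhaf2 (0.912), Atg3, Pramel12, Mob1b and Ppp4r3a. Hpdl was thus shared by Ooep and Tle6. Likeness here rests on the 4 day means that all genes share, with 3 arrays a day, and the order is not firm. With Spearman correlation or day means, 0 or 1 of each set of 5 stayed among the first 5.

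**Figure D3:**
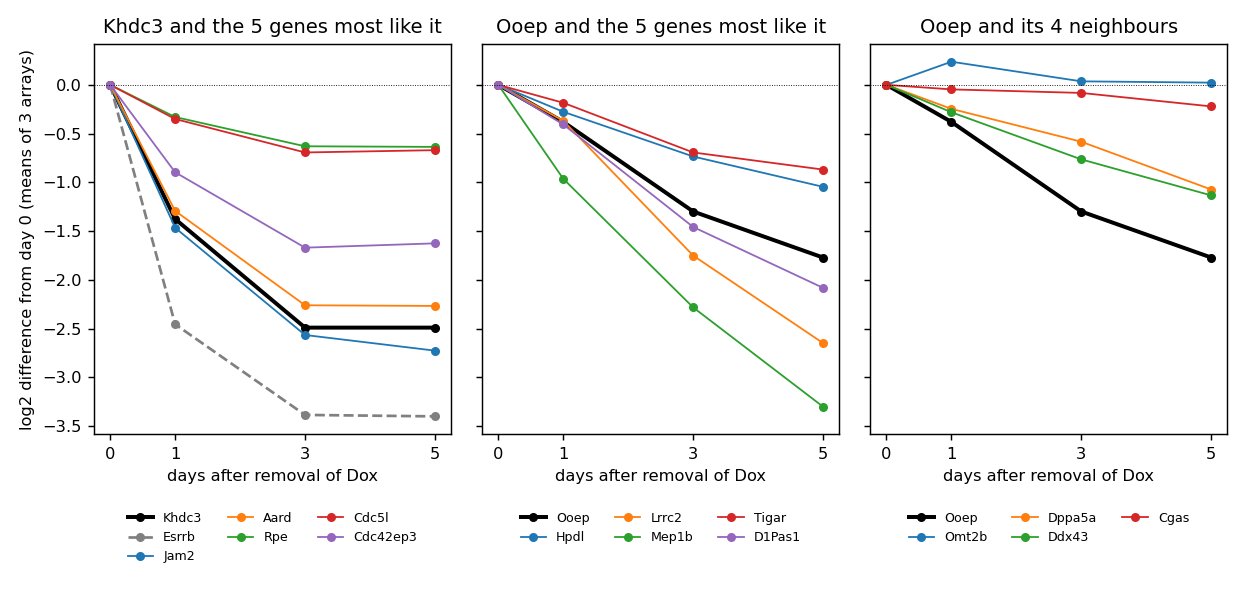
Log2 difference of the day mean (3 arrays) from day 0 against days after removal of Dox, for Khdc3 with Esrrb and its 5 most similar genes, for Ooep with its 5 most similar genes, and for Ooep with its 4 nearest genes. Khdc3 levels off after day 3, and Ooep goes on falling to day 5. The similar genes were picked by likeness on these same arrays, so they share these shapes by choice. Of the neighbours, Dppa5a and Ddx43 lie at -1.07 and -1.13 at day 5 while Omt2b lies at 0.02.

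The relatives of the members by family were read from a list of 31 genes, of which 28 were measured. Of these, 1, 1 and 3 were called higher and 3, 6 and 7 lower at days 1, 3 and 5, and 13 were above background on no array. The shares of all genes were 6.45%, 13.5% and 17.4% higher and 4.48%, 13.1% and 17.6% lower. Among the NLR genes, Nlrp4a, a germ cell relative of Nlrp5, stood at 7.36 ± 0.20 (SD, n = 3) at day 0 and at 7.45 ± 0.09 at day 1. It was called lower at day 3, when its arrays lay between 6.15 and 6.43, within the range of the background level or just above it, and at day 5, when all 3 arrays lay below that level at 5.49 to 5.99 (adjusted p = 5.9e-05 and 4.6e-07 in limma), so the size of its fall is not measured. Nlrc3 was likewise called lower, from 6.40 to 6.55 at day 0 to 5.82 to 5.90 at day 3, the latter below background (adjusted p = 0.0001 in limma). Nlrp4f was called lower on each day and Nlrp9b higher at days 1 and 5, but both were below background on all 12 arrays and no size is given.

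Among the Groucho relatives of Tle6, the short form Tle5 fell by 0.44, 1.01 and 1.21, while Tle1 and Tle3 rose by 0.37 and 0.40 at day 5 and Tle4 fell by 0.47 (adjusted p = 0.00075, 0.00098 and 0.0003 in limma for the last 3). Of the other relatives, Zbed5 fell by 0.47 at day 3 and 0.70 at day 5 (SE 0.06, adjusted p = 7.3e-05 and 1.2e-06 in limma). Among the KH-type genes, Dppa5a was called lower on each day, and Khdc1a was above background on no array.

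Of the 31 oocyte genes listed, 29 were measured, and 1, 0 and 1 were called higher and 2, 2 and 3 lower at days 1, 3 and 5. The median difference of these genes was -0.03 at day 5, and 18 of them were above background on no array. Nlrp4f, called lower on each day, and Nlrp2 were among these 18 and were also counted with the family relatives. The shares of all genes called were 6.45%, 13.5% and 17.4% higher and 4.48%, 13.1% and 17.6% lower. Of the 10 markers that define oocytes, Gdf9 and Zar1 were above background on all 12 arrays, Figla on 7, Zp3 on 6, Zp1 on 1, and Zp2, Bmp15, Nobox, Oosp1 and Mos on 0. The excess was small for Gdf9, between 6.27 and 6.65, and larger for Zar1, between 7.01 and 7.30. The 99th percentile of the receptors lay between 6.80 and 7.05, above Gdf9 on every array. The day means of Zar1, from 7.09 to 7.25, lay above that range. Sohlh2, a helix-loop-helix factor of germ cells, fell by 1.08 at day 3 and 1.71 at day 5 (SE 0.14, adjusted p = 9e-05 and 8.5e-07 in limma), when its arrays lay between 6.20 and 6.90. The lowest of these lay within the range of the background level, from 6.14 to 6.35. Zp3, a coat protein of the egg, was 0.44 higher at day 1 and 0.39 lower at day 5, from a level near background. Kit, the stem cell factor receptor, fell by 0.60 at day 1 and was 1.48 higher at day 5 (SE 0.09, adjusted p = 0.00088 and 4.9e-08 in limma).

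Khdc3 also belongs to the ES cell associated transcripts, and 9 others of that kind were measured. Of these 9, 1, 0 and 0 were called higher and 3, 7 and 9 lower at days 1, 3 and 5, with a median difference of -1.05 at day 5. The shares of all genes were 6.45%, 13.5% and 17.4% higher and 4.48%, 13.1% and 17.6% lower. Fbxo15, an F-box gene, fell early, by 0.58 at day 1 and 1.05 at day 3, and was 1.07 lower at day 5 (SE 0.08, adjusted p = 0.00061, 1.1e-06 and 4.3e-07 in limma). Dppa2 and Dppa4, which act together in ES cells, fell late, by 1.94 and 1.47 at day 5 after differences of -0.06 and 0.09 at day 1. Dnmt3l, a cofactor of DNA methyltransferases, rose by 0.57 at day 1 and was 1.05 lower at day 5. Nanog fell by 0.80 at day 1 and stood 0.25 lower at day 5.

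**Figure D4:**
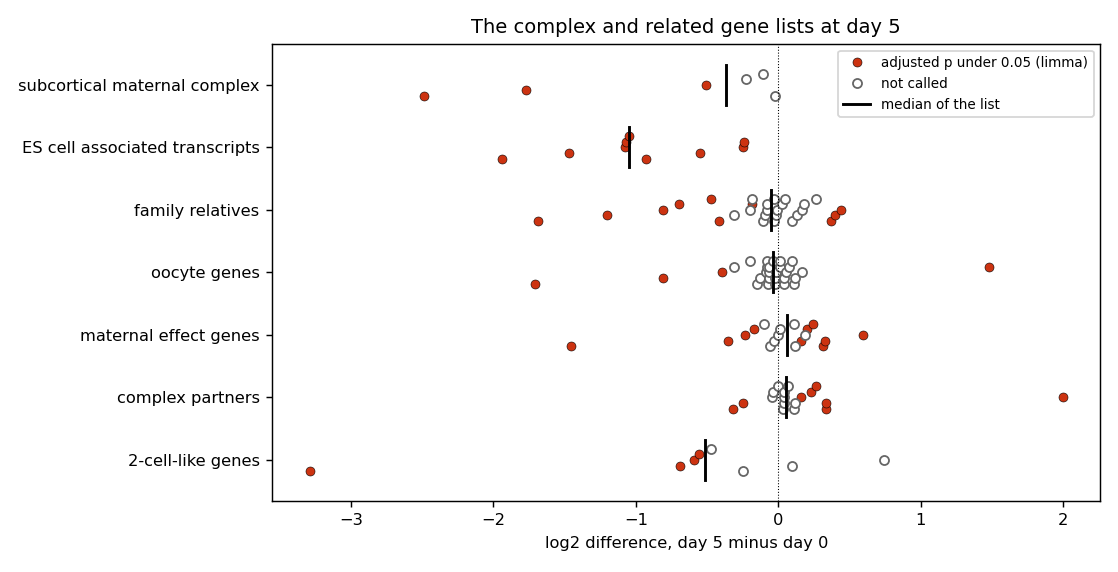
Log2 difference of each gene, day 5 minus day 0 (means of 3 arrays), in the complex and 6 lists of related genes, filled where the adjusted p from limma was under 0.05 and with a bar at the median of each list. The 9 ES cell associated transcripts, above background on every array, all lie below 0 with a median of -1.05. The oocyte genes centre on -0.03, but 18 of the 29 were above background on no array, where a fall could go unseen. The genes of the complex range from -2.49 to -0.02.

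Markers of other cells and of the ES state moved over the same days. At day 5, 8 of the 10 ES cell markers were called lower and 1 higher, beside 17.6% and 17.4% of all genes. Lin28a averaged 10.38 at day 0 and 10.78 at day 5. The summed log2 level of the 10 markers lay between 15.13 and 15.19 at day 0 and between 14.65 and 14.68 at day 5. That of the 16 fibroblast markers, counted because the line is kept on fibroblast feeders between experiments, ran from 12.73 to 12.78 at day 0, 11.73 to 11.88 at day 3 and 12.78 to 13.10 at day 5. Of these markers 12 were above background on every array and Lum on none. At day 3, the day on which Zbed3 was lowest, 9 were called lower and 1 higher, beside 13.1% and 13.5% of all genes. At day 5 the median difference of the 16 markers was -0.01, with 2 called higher and 3 lower, beside 17.4% and 17.6% of all genes. Acta2, which makes up the largest share of the sum, was 0.60 higher than at day 0. The sum at day 5 thus does not describe most of the markers. The part of these markers in the results was not tested.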

How the data were processed

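The deposited log2 values, 1 per probe set, were made by the authors with RMA in Affymetrix Expression Console, whose version was not given in the sources used here. Replicates were not pooled. Probe sets with 1 symbol (21789 of 35557) were averaged into 19938 genes, and those with several symbols (1621) or without any (12147) were set aside. Samples were grouped by day and numbered from their titles. The number of arrays limits the precision.

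The fit used limma 3.58.1 in R 4.3.3 with 1 mean for each day over all 12 arrays (8 residual and 4.63 prior degrees of freedom), and Benjamini-Hochberg adjustment over every gene, after a test on simulated data. Python 3.11.15 with numpy 2.4.6, pandas 2.3.3 and matplotlib 3.10.9 did the rest. Promoter windows were those of RefSeq.

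The members and lists were chosen with earlier results of these data known. Some genes were shared between lists and were counted in each, such as Nanog and Dppa4 in the ES cell associated transcripts and the ES cell markers. Besides members and Esrrb, up to 6 genes of a list with the smallest adjusted p at day 3 or 5 were named, with called genes of the opposite direction, the 5 genes most like a member and the 2 nearest on each side. Others, such as Nlrc3, were named after their values were seen. Alternatives were the brightest probe set, every probe set, a further quantile normalization, subtracted array medians, a filter on dim genes, trended and robust eBayes, array weights, fits of 2 days, a replicate block, the test in the study's methods (analysis of variance, Bonferroni correction and total fold change over 2) and leaving out each array.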

Additional observations from a re-analysis of the deposited data

How the results depend on the processing

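Precision is limited by 3 arrays a day and, for Nlrp5, Padi6, partly Tle6, and Khdc3 at days 3 and 5, by signals near background. With every probe set tested, 1 member was called at day 1 in place of 2. Without dim genes, 1 of the oocyte genes was called at day 3 in place of 2, and 1 and 4 of the family relatives at days 1 and 3 in place of 4 and 7, with 14 relatives left to test. Leaving out each array in turn, members called numbered 1 to 2 at day 1, 3 to 4 at day 3, 3 at day 5, 2 to 3 from day 1 to day 3 and 1 from day 3 to day 5. The number of members above background was 4, 3 and 5 with the 90th and 99th percentiles of all receptors and with vomeronasal receptors alone. The test in the study's methods called 2 members over the time course, Khdc3 and Ooep, among 420 genes.

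Signs turned only for differences that were not called. Khdc3 from day 3 to day 5 was 0.037 after quantile normalization again and 0.024 with array medians subtracted, and -0.10 to 0.068 over the fits without 1 array. Padi6 at day 5 was 0.022 after quantile normalization again and -0.088 to 0.055 without 1 array. Nlrp5 without 1 array was -0.21 to 0.11 at day 3 and -0.0036 to 0.26 from day 1 to day 3. With the replicate number as a block, no call of a member changed, and Khdc3 at day 5 remained at -2.49. Of the correlations between deviations from the day means, 0 of 18 between same-numbered arrays were over 0.1, and 5 of 36 between differently numbered arrays. With 3 arrays a day, this cannot decide whether the numbers pair the samples.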

Other observations

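Genes known for other maternal effects and for partners of the complex moved in both directions. Of 18 measured maternal effect genes, 1, 4 and 6 were called higher and 1, 4 and 4 lower at days 1, 3 and 5, with a median difference of 0.06 at day 5. The shares of all genes were 6.45%, 13.5% and 17.4% higher and 4.48%, 13.1% and 17.6% lower. Zfp57, which guards methylation at imprinted genes, fell by 0.45 at day 1, 1.38 at day 3 and 1.45 at day 5 (SE 0.08, adjusted p = 0.0033, 8.2e-08 and 2.6e-08 in limma), and its corepressor Trim28 fell by 0.36 at day 5. Zfp36l2, an RNA-binding protein that destabilizes transcripts, rose by 0.42, 0.63 and 0.60 on those days (SE 0.07, adjusted p = 0.0026, 3.1e-05 and 2.7e-05 in limma). Cdh1, the cell adhesion protein E-cadherin, and Ctnnb1, beta-catenin, rose by 0.33 and 0.20 at day 5.

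Of 18 measured partner genes, 0 were called at day 1, 1 rose by day 3, and at day 5 there were 6 higher calls and 2 lower. Beside them, 6.45%, 13.5% and 17.4% of all genes were called higher at days 1, 3 and 5, and 4.48%, 13.1% and 17.6% lower. Sfn, a 14-3-3 protein of epithelia, rose by 0.68 at day 3 and 1.999 at day 5 (SE 0.14, adjusted p = 0.0028 and 1.9e-07 in limma). Ssh1, a phosphatase of cofilin, and Gsk3b, a kinase of the Axin complex, each rose by 0.34 at day 5, and Parp1, a DNA repair enzyme, fell by 0.32. Among 8 measured genes of the 2-cell-like state, of 18 listed, 0 were called higher on any day and 1, 2 and 4 lower. Of all genes, 4.48%, 13.1% and 17.6% were called lower at days 1, 3 and 5. Only 1 of the 8 was above background on all 12 arrays, and 4 were on none. Gm5662 averaged 8.23 ± 0.67 (SD, n = 3) at day 0 and 7.16 ± 0.20 at day 1, and lay below background on all 3 arrays of day 5, at 4.39 to 5.36 (adjusted p = 0.03 at day 1 and 1.3e-06 at day 5 in limma), so the size of its fall at day 5 is not measured.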
